A study of Homo sapiens with 14 samples.

Results

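The Polycomb complex genes are 33 genes that encode subunits of Polycomb repressive complexes 1 and 2 (PRC1 and PRC2), out of 20033 protein-coding genes in the gene table used here. They were taken from a list of names with no threshold on a value, although that list was drawn up with earlier results of these data known, and were read in 4 groups: PRC1.1 (6 genes), canonical PRC1 (9 genes), other PRC1 (7 genes) and PRC2 (11 genes). A gene was counted as called in a peak list when a region of that list overlapped its span, or the 1 kb beyond either end, by at least 1 bp. The data were chromatin immunoprecipitation sequencing (ChIP-seq) peak lists from HS-SY-II, a human synovial sarcoma line whose genotype the labels give as WT. One antibody was against GLTSCR1, a subunit found in the GBAF form of the BAF chromatin remodeller, and the other was an anti-HA antibody against an HA-tagged SS18::SSX fusion, called the fusion from here on. The labels do not say how the tagged fusion was put into the cells. The GLTSCR1 lists, 5 in all, came from DMSO vehicle and from 12, 24, 48 and 96 h of 100 nM WA-68, a PROTAC that degrades the GBAF subunit BRD9, and 4 fusion lists came from DMSO and from 12, 24 and 48 h of WA-68. Every group held 1 library, so no difference between groups could be tested and no error between replicates can be given. Time in culture and time of WA-68 cannot be told apart, since the labels give no time for DMSO.

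Polycomb complexes keep developmental genes silent. PRC1 places ubiquitin on histone H2A and, in its canonical form with CBX and PHC subunits, compacts chromatin, while PRC2 methylates histone H3 at lysine K27. PRC1.1 is the variant built on PCGF1, BCOR or BCORL1, and KDM2B, which binds unmethylated CpG islands. The SSX part of the fusion is known to bind nucleosomes that carry the PRC1 ubiquitin mark, and BAF complexes are known to oppose Polycomb repression.

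The promoters of 7 members are shown because they span the range of the results: BCOR with the widest GLTSCR1 coverage, EZH2, PHF19 and MTF2 with a GLTSCR1 region near the start in each of the 5 lists, BMI1 with fusion regions over most of its window, RNF2 with calls that came and went, and USP7 with none. Each is the 250 bases before a RefSeq start (GRCh38.p14), read 5′ to 3′ on the strand of the gene. Where a gene had several listed starts, the promoter overlapped in the most lists was chosen, and in a tie the one farthest upstream. Capitals mark GGGCGG (the SP/KLF GC box), CCAAT (NF-Y), CACGTG (E-box) and AAGATGGC (YY1), found on either strand. The BCOR sequence is chrX:40146634-40146883 on the minus strand, at a start inside the gene. The EZH2 sequence is chr7:148884292-148884541 on the minus strand, and the PHF19 sequence is chr9:120877189-120877438 on the minus strand. The MTF2 sequence is chr1:93079033-93079282 on the plus strand, and the BMI1 sequence is chr10:22320849-22321098 on the plus strand. The RNF2 sequence is chr1:185045308-185045557 on the plus strand, and the USP7 sequence is chr16:8963907-8964156 on the minus strand.
BCOR: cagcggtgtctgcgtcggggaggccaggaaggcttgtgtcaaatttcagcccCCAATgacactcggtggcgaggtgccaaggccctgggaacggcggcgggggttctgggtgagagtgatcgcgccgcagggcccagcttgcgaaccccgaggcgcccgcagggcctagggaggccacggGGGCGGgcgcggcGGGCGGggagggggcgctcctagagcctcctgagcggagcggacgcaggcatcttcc
EZH2: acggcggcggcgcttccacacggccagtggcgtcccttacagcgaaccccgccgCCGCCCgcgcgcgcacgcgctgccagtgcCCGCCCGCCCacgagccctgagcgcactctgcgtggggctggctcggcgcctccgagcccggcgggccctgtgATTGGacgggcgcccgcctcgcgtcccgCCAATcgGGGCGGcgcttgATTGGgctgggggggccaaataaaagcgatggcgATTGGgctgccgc
PHF19: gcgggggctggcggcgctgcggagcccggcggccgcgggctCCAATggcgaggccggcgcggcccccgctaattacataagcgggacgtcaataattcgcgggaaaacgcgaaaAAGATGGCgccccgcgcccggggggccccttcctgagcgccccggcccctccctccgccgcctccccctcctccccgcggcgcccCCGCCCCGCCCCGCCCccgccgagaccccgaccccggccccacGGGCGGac
MTF2: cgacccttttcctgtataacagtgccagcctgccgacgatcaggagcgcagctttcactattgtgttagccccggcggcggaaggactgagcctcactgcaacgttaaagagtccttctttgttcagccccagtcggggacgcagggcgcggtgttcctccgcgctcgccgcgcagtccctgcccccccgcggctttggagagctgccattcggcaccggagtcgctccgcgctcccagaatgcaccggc
BMI1: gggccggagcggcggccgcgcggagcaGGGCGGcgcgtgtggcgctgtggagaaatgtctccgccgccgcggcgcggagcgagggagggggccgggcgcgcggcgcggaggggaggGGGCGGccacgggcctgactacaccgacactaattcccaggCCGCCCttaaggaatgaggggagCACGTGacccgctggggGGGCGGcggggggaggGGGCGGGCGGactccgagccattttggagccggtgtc
RNF2: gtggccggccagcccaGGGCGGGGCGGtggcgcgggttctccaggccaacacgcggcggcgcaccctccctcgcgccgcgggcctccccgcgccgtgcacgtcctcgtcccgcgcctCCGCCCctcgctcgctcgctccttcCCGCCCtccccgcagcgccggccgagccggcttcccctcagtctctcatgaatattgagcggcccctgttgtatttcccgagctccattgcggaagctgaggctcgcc
USP7: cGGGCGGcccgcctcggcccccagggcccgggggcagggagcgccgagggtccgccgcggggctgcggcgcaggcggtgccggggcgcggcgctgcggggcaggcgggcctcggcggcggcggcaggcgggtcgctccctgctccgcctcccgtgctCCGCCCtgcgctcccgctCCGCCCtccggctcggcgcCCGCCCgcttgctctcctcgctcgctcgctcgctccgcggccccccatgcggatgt

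With the 50 bases after the start added, the BCOR promoter was overlapped by a region in 5 of 5 GLTSCR1 and 4 of 4 fusion lists. The EZH2 promoter was overlapped in 4 GLTSCR1 and 0 fusion lists, PHF19 in 5 and 2, MTF2 in 5 and 1, BMI1 in 4 and 4, and RNF2 in 2 and 0. The USP7 promoter was overlapped in 0 of the 9 lists. These counts follow in part from the choice of the most overlapped start. The promoter at the outer BCOR start was overlapped in 5 GLTSCR1 and 0 fusion lists, and the other BMI1 promoter in 3 and 2. The other promoters of EZH2 and PHF19 were overlapped in 0 lists of either antibody. Within the 250 bases shown, USP7 had 43 CpG dinucleotides and the other 6 genes 25 to 39. RefSeq promoters were at hand for 31 of the 33 members (49 promoters); CBX2 and CBX8 had no entry. The 300-base promoters of members had a median of 35 CpG dinucleotides, against 21 over all 22198 promoters. GGGCGG was present in 38 of 49 (77.6%, against 56.3% of all promoters), CCAAT in 19 (38.8%, against 34.7%), CCGGAAG (ETS) in 7 (14.3%, against 12.8%) and CACGTG in 7 (14.3%, against 8.34%). AAGATGGC was present in 4 (8.16%, against 3.53%), TGACGTCA (CRE) in 1 (2.04%, against 2.26%), the NRF1 motif in 1 (2.04%, against 1.50%) and TGANTCA (AP-1) in 0 (against 6.15%). A match describes the letters of the window and says nothing of binding.

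Polycomb complex genes were often called for both antibodies in DMSO, and the count was lower at 24 h than in DMSO for each antibody. GLTSCR1 was called at 26 of 33 members in DMSO (78.8%, against 37.3% of all protein-coding genes), at 24 in the 12 h list (72.7%, against 33.5%) and at 16 in the 24 h list (48.5%, against 23.7%). The 48 h list had 13 (39.4%, against 18.2%) and the 96 h list 19 (57.6%, against 23.4%). The fusion was called at 20 members in DMSO (60.6%, against 24.2%), and at 19 (57.6%, against 23.9%), 12 (36.4%, against 21.6%) and 18 (54.5%, against 23.5%) in the 12, 24 and 48 h lists. The members' share was thus above that of all genes in each of the 9 lists, and for GLTSCR1 the count over all genes was also lowest at 48 h. The lists themselves were of unequal length, with 13677 to 18037 regions for GLTSCR1 and 24846 to 28619 for the fusion, and the lowest deposited −log10 q in each list was 3.0. The lists do not carry read depth, so a gene without a region had no signal above the threshold of the peak caller there, which differs from having no signal.

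**Figure D1:**
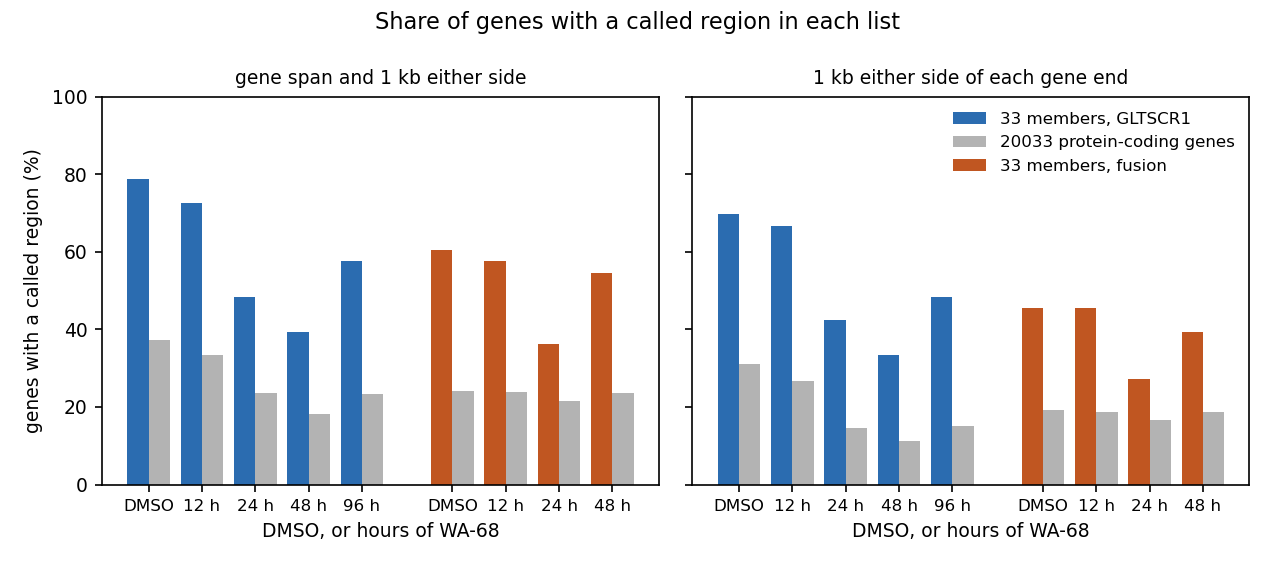
Share of genes (%) with a called region in each list, for the 33 members (blue for GLTSCR1, orange for the fusion) and for 20033 protein-coding genes (grey), with the gene span and 1 kb either side on the left and only the 1 kb either side of each gene end on the right. Each bar is 1 library; members stand above the grey bar in each list, from 78.8% against 37.3% in GLTSCR1 DMSO to 36.4% against 21.6% in the fusion 24 h list on the left.

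Longer genes have more room for a region, and the members' median span was 48.5 kb (2.65 to 276 kb), against 24.1 kb for all genes. Within span classes, GLTSCR1 in DMSO was called at 7 of 7 members under 15 kb (27.2% of all genes of that class), 6 of 10 from 15 to 50 kb (38.8%), 8 of 10 from 50 to 100 kb (43.9%) and 5 of 6 over 100 kb (51.5%). For the fusion the counts were 5 of 7 (20.5%), 3 of 10 (21.2%), 7 of 10 (24.8%) and 5 of 6 (37.4%). The fusion share in the 15 to 50 kb class was the one of the 8 closest to that of all genes.

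Narrower windows, which depend less on the span, left the members' share above that of all genes in each list. With 1 kb either side of the gene ends alone, GLTSCR1 was called from DMSO to 96 h at 23 (31.1% of all genes), 22 (26.6%), 14 (14.7%), 11 (11.1%) and 16 (15.2%) of 33 members. The fusion was called there at 15 (19.3%), 15 (18.6%), 9 (16.6%) and 13 (18.6%). In these windows 9 members had GLTSCR1 in all 5 lists (6.29%), 5 had the fusion in all 4 (8.92%), which were 5 of the 15 called in DMSO (46.2%), and BMI1, CBX2, CBX8 and JARID2 had a region in all 9 (4 of 33, against 2.38%). At the 300-base RefSeq promoters of 31 members, GLTSCR1 was called at 19 (25.3%), 17 (19.8%), 10 (9.36%), 10 (7.14%) and 12 (9.89%), and the fusion at 9 (13.1%), 10 (11.6%), 7 (10.5%) and 8 (13.1%). Both antibodies were called in DMSO at 9 of these promoters (8.48%). GLTSCR1 was at the promoters of 6 members in all 5 lists (3.40%), which was 6 of the 19 called in DMSO (13.4%). The fusion was at those of 3 in all 4 lists (4.48%), 3 of the 9 called in DMSO (34.1%), and BCOR and JARID2 had a region in all 9 lists (2 of 31, against 0.846%). Promoters of the same gene were pooled in these counts, for members and for all genes. No single JARID2 promoter was called in all 9 lists: the inner had 4 GLTSCR1 and 4 fusion lists, the outer 1 and 3.

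The counts were then split by the 4 groups. GLTSCR1 was called, in the order DMSO, 12, 24, 48 and 96 h, at 5, 5, 4, 3 and 4 of the 6 PRC1.1 genes and at 8, 8, 5, 4 and 6 of the 9 canonical PRC1 genes. It was called at 4, 3, 1, 2 and 4 of the 7 other PRC1 genes and at 9, 8, 6, 4 and 5 of the 11 PRC2 genes. The fusion was called, in the order DMSO, 12, 24 and 48 h, at 4, 4, 4 and 4 PRC1.1 genes, 4, 4, 3 and 4 canonical PRC1 genes, 6, 5, 1 and 4 other PRC1 genes, and 6, 6, 4 and 6 PRC2 genes. PRC1.1 thus held the same fusion count in all 4 lists, with SKP1 in place of PCGF1 at 12 h, while other PRC1 had 1 gene left for either antibody at 24 h, RYBP in both cases. Against the shares of all genes given above, that 1 of 7 (14.3%) was below 23.7% for GLTSCR1 and below 21.6% for the fusion, and the share of every group was above that of all genes in its other lists. These counts are small, rest on 1 library each, and were not tested between groups.

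GLTSCR1 was called in all 5 of its lists at 11 of 33 members, against 11.6% of all genes: KDM2B, BCOR, PCGF1, BMI1, CBX2, CBX6, CBX8, EZH2, JARID2, MTF2 and PHF19. The fusion was called in all 4 of its lists at 8 members, against 13.3% of all genes: KDM2B, BCOR, BCORL1, BMI1, RYBP, CBX2, CBX8 and JARID2. KDM2B, BCOR, BMI1, CBX2, CBX8 and JARID2 were called in all 9 lists (6 of 33, against 6.48%). USP7, a deubiquitinase that joins PRC1.1, was the 1 member with no region in any list, against 44.4% of all genes. In DMSO 18 members had a region of both antibodies, against 17.8% of all genes. PCGF5, PCGF6, CBX7 and EZH1 had fusion regions in at least 1 list and no GLTSCR1 region in any (4 of 33, against 8.60%). CBX6, PHC1, PHC2 and PHC3 had GLTSCR1 regions and no fusion region in any list (4 of 33, against 18.3%), and the PHC genes are the 3 Polyhomeotic subunits of canonical PRC1.

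**Figure D2:**
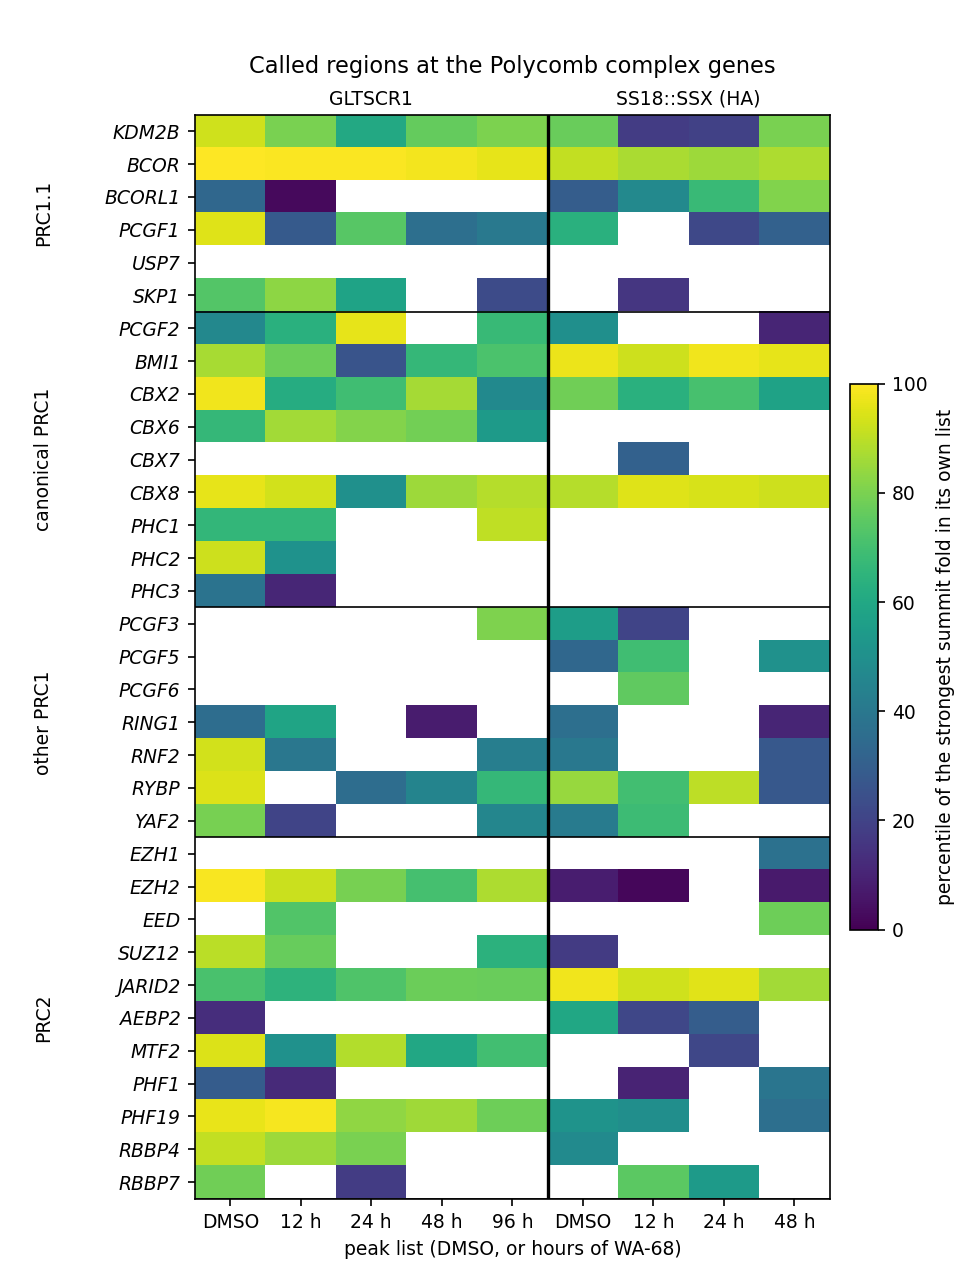
Map of called regions for the 33 members (rows, by group) in the 9 lists (columns). Colour gives the percentile, within its own list, of the summit fold of the strongest region over the gene window, and white means no called region; BCOR is in the top colours in all 5 GLTSCR1 lists and USP7 is white throughout.

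Of the 26 members called for GLTSCR1 in DMSO, 23 were called again in the 12 h list (88.5%, against 74.1% of all genes called in DMSO) and 16 in the 24 h list (61.5%, against 53.5%). The 48 h list kept 13 of the 26 (against 42.5%) and the 96 h list 18 (69.2%, against 53.4%). Every later list held 11 of the 26 (42.3%, against 31.1%), and no later list held AEBP2 (1 of 26, 3.85%, against 16.4%). Of the 20 members called for the fusion in DMSO, the 12 h list kept 14 (against 71.0%), the 24 h list 10 (against 67.6%) and the 48 h list 15 (against 71.5%). Every later list held 8 of the 20 (against 55.0%), and none held SUZ12 or RBBP4 (2 of 20, against 15.4%). The members' share stood above that of all genes at each later time for GLTSCR1. For the fusion it was near that of all genes at 12 h (70%) and 48 h (75%), within 1 gene, and below it at 24 h (50%). No member without a DMSO region had one at every later time, for either antibody. RNF2, YAF2, PHC1 and SUZ12 were called for GLTSCR1 in DMSO and at 12 and 96 h but not at 24 or 48 h (4 of 33, against 2.24%). Most genes outside the members had no DMSO call. Among genes called in DMSO the pattern held for 4 of 26 members, against 449 of 7464 genes.

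Regions were followed in the same way. Of 49 GLTSCR1 regions over members in DMSO, 36 were overlapped by a region of the 12 h list (73.5%, against 57.1% of the regions over all genes), 28 by one of the 24 h list (57.1%, against 44.3%), 23 by one of the 48 h list (46.9%, against 38.2%) and 31 by one of the 96 h list (63.3%, against 45.0%). Of 66 fusion regions in DMSO, 44 (66.7%, against 70.6%), 37 (56.1%, against 63.5%) and 45 (68.2%, against 67.5%) were overlapped in the 12, 24 and 48 h lists. BCOR alone held 9 of the 49 and 24 of the 66 regions. Without BCOR the GLTSCR1 counts were 29 (72.5%), 23 (57.5%), 17 (42.5%) and 23 (57.5%) of 40, each still above the share over all genes. The fusion counts without BCOR were 25 (59.5%), 21 (50%) and 27 (64.3%) of 42, each below the share over all genes, so at 48 h BCOR decided the side.

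The regions of the 2 antibodies were then set against each other at the same time. GLTSCR1 regions over members were overlapped by a fusion region of the same time in 34 of 49 cases in DMSO (69.4%, against 54.2% over all genes). At 12, 24 and 48 h this held for 26 of 54 (48.1%, against 50.1%), 25 of 43 (58.1%, against 51.5%) and 32 of 41 (78.0%, against 67.2%). Without BCOR the counts were 25 of 40 (62.5%), 15 of 40 (37.5%), 15 of 33 (45.5%) and 16 of 23 (69.6%). The share was then below that over all genes at 24 h as well as at 12 h, so at 24 h the direction rested on BCOR. Of the 18 members with both antibodies in DMSO, 17 had overlapping regions, BCORL1 being the exception. By 12 h the regions overlapped at 9 of 12 members (not at KDM2B, PHF1 and SKP1), by 24 h at 8 of 10 (not at KDM2B and RBBP7) and by 48 h at 10 of 11 (not at RYBP).

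The strongest GLTSCR1 summit lay near a gene start at most members. In DMSO it was within 1 kb of a RefSeq start at 20 of 24 called members with a listed start (83.3%, against 72.8% of all called genes). The later lists had 18 of 22 (81.8%, against 68.4%), 8 of 14 (57.1%, against 47.4%), 7 of 11 (63.6%, against 43.9%) and 12 of 17 (70.6%, against 49.4%). For the fusion, from DMSO to 48 h, the counts were 11 of 18 (61.1%, against 53.1%), 11 of 17 (64.7%, against 47.1%), 6 of 10 (against 46.7%) and 10 of 16 (62.5%, against 52.5%). PCGF2, JARID2, AEBP2 and PHF1 were the members whose strongest DMSO GLTSCR1 summit was farther away. For PCGF2, AEBP2 and PHF1 the only listed start lay inside the gene span, so distances to the outer end of the span would differ. The median percentile of the strongest region within its list was 88.3 for GLTSCR1 in DMSO, and 65.6, 73.3, 76.3 and 69.8 at the later times. For the fusion it was 53.4 in DMSO, then 63.4, 69.5 and 44.7. No such median is given here for all called genes, so these values cannot be read as particular to the members. Taking the strongest region of each gene raises a median of this kind by construction.

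**Figure D3:**
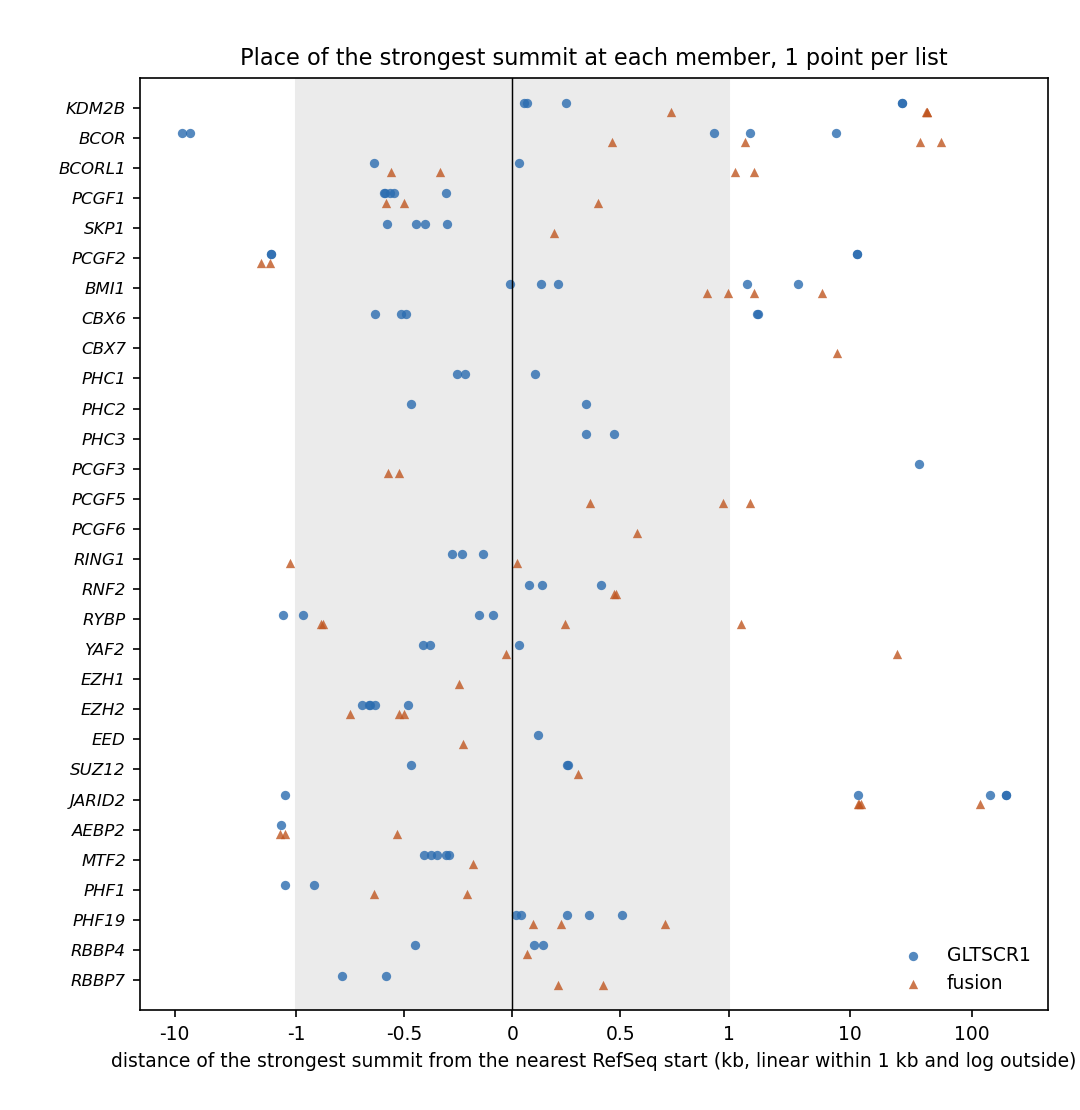
Distance (kb) of the strongest summit at each called member from the nearest RefSeq start, 1 point per list, with circles for GLTSCR1 and triangles for the fusion; the axis is linear within 1 kb (shaded) and logarithmic outside. CBX2, CBX8 and USP7 have no point; PCGF1, EZH2 and MTF2 circles stack at 1 place while JARID2 and KDM2B points reach far into the gene.

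In the account of single genes that follows, fold means the authors' enrichment at the summit of the strongest region over the background of their peak caller, a linear ratio that describes rank within its own list. Whether that background came from an input library is not given in the sources used here. Depth and background can differ between libraries, so folds of different lists are set side by side and not compared as levels. The RefSeq gene table gives spans without exons or introns, so positions are given as distances from RefSeq starts. A region that reached into a window was taken whole, and in 8 of 167 cases its summit lay beyond the window: 5 at CBX8, and 1 each at RING1 (fusion, DMSO), RYBP (GLTSCR1, 24 h) and JARID2 (GLTSCR1, DMSO).

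BCOR, the PRC1.1 corepressor on chromosome X (chrX:40051246-40177277, minus strand, 126 kb), had the most bases under GLTSCR1 regions of all members in each list. In DMSO 9 GLTSCR1 regions covered 46.8 kb of its window, and the later lists had 14, 10, 18 and 21 regions over 40.5, 39.5, 35.0 and 34.1 kb. By covered bases BCOR ranked 4 of 7464 called genes in DMSO and then 3 of 6702, 3 of 4751, 3 of 3653 and 4 of 4690. The coverage was in more and narrower pieces later: the widest region was 15.6 kb in DMSO (chrX:40143661-40159219, over the internal start whose promoter is shown above) and 8.12, 7.83, 5.70 and 6.05 kb at 12, 24, 48 and 96 h. Regions were also narrower later over the whole GLTSCR1 lists. Those over 5 kb numbered 227 in DMSO and 89, 95, 76 and 68 later. The median region width was 568 bp in DMSO and 459, 451, 400 and 434 bp later. The highest fold at BCOR was 23.2 in DMSO, in a region of 11.3 kb at the outer start (chrX:40166269-40177575), and 19.9, 16.1, 14.0 and 11.5 later. The later maxima were not all at that start. At 12 and 48 h they were in chrX:40173217-40177595 and chrX:40166589-40171485, and at 24 and 96 h in chrX:40151360-40159190 and chrX:40151512-40157563. From DMSO to 96 h the summits with these folds stood at percentiles 99.7, 99.5, 99.2, 98.4 and 96.3 of their lists.

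Fusion coverage at BCOR was in more and smaller regions than that of GLTSCR1. There were 24, 33, 24 and 31 regions in DMSO and at 12, 24 and 48 h, over 35.4, 30.0, 20.5 and 26.7 kb, and BCOR ranked 108, 154, 171 and 144 by covered bases among genes called in each list. The highest folds were 8.44, 7.35, 7.01 and 7.66, at different places in the gene, with summits spread over 86283 bp. In DMSO 33.6 kb lay under both antibodies, which was 71.9% of the GLTSCR1 bases and 95.2% of the fusion bases. The shared length was 25.1 kb at 12 h, 16.3 kb at 24 h and 21.7 kb at 48 h, which was 62.0%, 41.1% and 61.9% of the GLTSCR1 bases and 83.7%, 79.2% and 81.4% of the fusion bases. Bases totalling 27.3 kb were under a GLTSCR1 region in all 5 lists and 9.12 kb under a fusion region in all 4, with 7.04 kb in both sets. A stretch of 30.5 kb between 36.3 and 66.8 kb from the outer start was under no region of any list. The same held for 6.20 kb between 11.4 and 17.6 kb, and for the part of the 126 kb span beyond 94.5 kb.

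**Figure D4:**
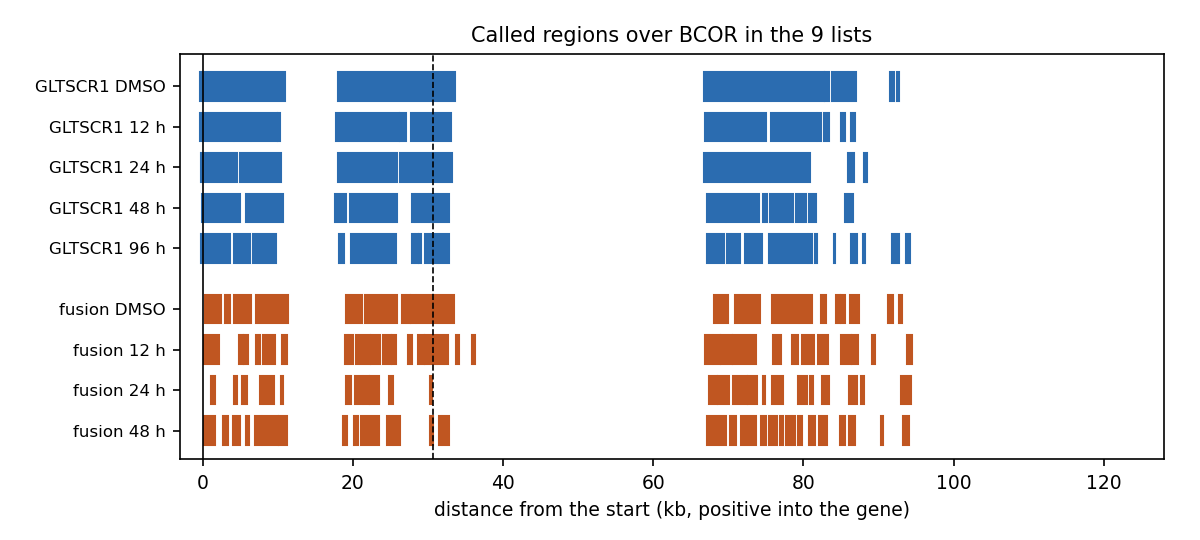
Called regions over BCOR in the 9 lists, drawn to scale as distance (kb) from the outer start (solid line) into the gene; the dashed line is the internal RefSeq start. GLTSCR1 regions are blue and fusion regions orange, and the space from 36.3 to 66.8 kb is empty in each list. So are the spaces from 11.4 to 17.6 kb and beyond 94.5 kb.

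KDM2B, the CpG-island-binding subunit of PRC1.1, was called in all 9 lists with short regions. GLTSCR1 folds were 9.44 in DMSO, then 6.69, 5.30, 6.48 and 6.75 at 12, 24, 48 and 96 h, and regions covered 5.05 kb in DMSO and 1.17 to 2.51 kb later. The strongest GLTSCR1 summit was within 1 kb of a start in DMSO and at 12 and 96 h, and 26796 and 26766 bp inside from the nearest start at 24 and 48 h. Fusion folds were 6.11, 3.55, 3.68 and 6.45, over 2.32, 0.912, 0.418 and 2.03 kb. In DMSO, 12 h and 48 h the strongest fusion summit was 43110, 42464 and 42393 bp into the gene, and the window also holds part of RNF34.

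PCGF1, the RING-finger subunit that defines PRC1.1, has the shortest span of the members (2.65 kb). GLTSCR1 folds were 10.5, 4.17, 6.04, 4.55 and 4.61, and each summit lay upstream of the start, from -593 to -307 bp. The fusion had folds of 5.19 in DMSO, 3.76 at 24 h and 4.07 at 48 h, with no region at 12 h. SKP1, an adaptor subunit shared with SCF ubiquitin ligases, had GLTSCR1 folds of 6.23, 7.02, 5.17 and 4.01 in DMSO and at 12, 24 and 96 h, and a fusion region at 12 h alone (fold 3.48). At BCORL1, the BCOR paralog, GLTSCR1 was called in DMSO (4.33) and at 12 h (3.01) and not later, and the fusion in all 4 lists with folds of 3.95, 4.43, 5.47 and 6.58.

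Among canonical PRC1 genes, BMI1 (PCGF4, the RING-finger partner of RNF2) had more fusion than GLTSCR1 coverage at each shared time, as did the lists as a whole. From DMSO to 48 h the whole fusion lists covered 33.9, 36.4, 30.3 and 33.4 Mb. The GLTSCR1 lists of the same times covered 16.8, 11.1, 10.5 and 8.55 Mb. At BMI1, fusion regions covered 7.19, 7.38, 6.44 and 6.79 kb in DMSO and at 12, 24 and 48 h, which was 57.0%, 58.6%, 51.1% and 53.9% of its window, with highest folds of 11.6, 8.79, 11.5 and 11.1. GLTSCR1 regions covered 4.36, 2.76, 1.41, 2.07 and 2.01 kb from DMSO to 96 h, with folds of 7.87, 6.43, 4.02, 5.81 and 6.06. The GLTSCR1 bases lay under fusion regions for 95.6%, 90.4%, 100.0% and 97.0% from DMSO to 48 h. The window also holds parts of COMMD3 and of the COMMD3-BMI1 readthrough gene, so its regions cannot be assigned to BMI1 alone.

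CBX8 and CBX2 are neighbours on chromosome 17 and encode chromodomain subunits that read the PRC2 histone mark. At CBX8 (chr17:79792132-79797077) GLTSCR1 folds were 11.7, 9.32, 4.86, 7.49 and 8.13, and fusion folds were 7.87, 10.2, 8.94 and 8.85. The summits behind the GLTSCR1 folds in DMSO and at 96 h, and behind the fusion folds at 12, 24 and 48 h, lay 305 to 2094 bp beyond the CBX8 window. Regions over CBX8 ran on outside its window: the widest were 8.22 kb for GLTSCR1 in DMSO (chr17:79796627-79804844) and 6.77 and 5.70 kb for the fusion at 12 and 48 h. BCOR and CBX8 were the members with a GLTSCR1 region over 5 kb in DMSO (2 of 33, against 0.899% of all genes), and no member had a fusion region that wide in DMSO (0 of 33, against 2.27%). Within the CBX8 window the shared length was 4.56 kb in DMSO, all of the GLTSCR1 bases and 97.1% of the fusion bases, and 0.50 kb at 24 h. At CBX2 (chr17:79777311-79787983) GLTSCR1 folds were 13.9, 5.41, 5.73, 7.64 and 4.85, over 1.39, 1.21, 0.859, 0.725 and 0.452 kb. Fusion folds at CBX2 were 6.22, 5.06, 5.63 and 4.98.

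PHC2, a Polyhomeotic subunit that links PRC1 particles through its SAM domain, had a GLTSCR1 region in DMSO (fold 9.34) and at 12 h (4.95) and none later. PHC3 was called at the same times with folds of 4.50 and 3.52, and PHC1 at DMSO, 12 and 96 h with folds of 5.77, 5.67 and 8.54. CBX6, another chromodomain subunit, was called for GLTSCR1 in all 5 lists, with folds of 5.13 to 7.46. CBX7 had a fusion region at 12 h alone (fold 3.95). At PCGF2, the paralog of BMI1, GLTSCR1 folds were 4.83, 5.49, 10.6 and 5.79 in DMSO and at 12, 24 and 96 h. The strongest regions at 12 and 24 h were within 1 kb of another gene, CISD3, and 11394 and 11415 bp from the nearest PCGF2 start. The fusion was called at PCGF2 in DMSO (4.60) and at 48 h (3.40).

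**Figure D5:**
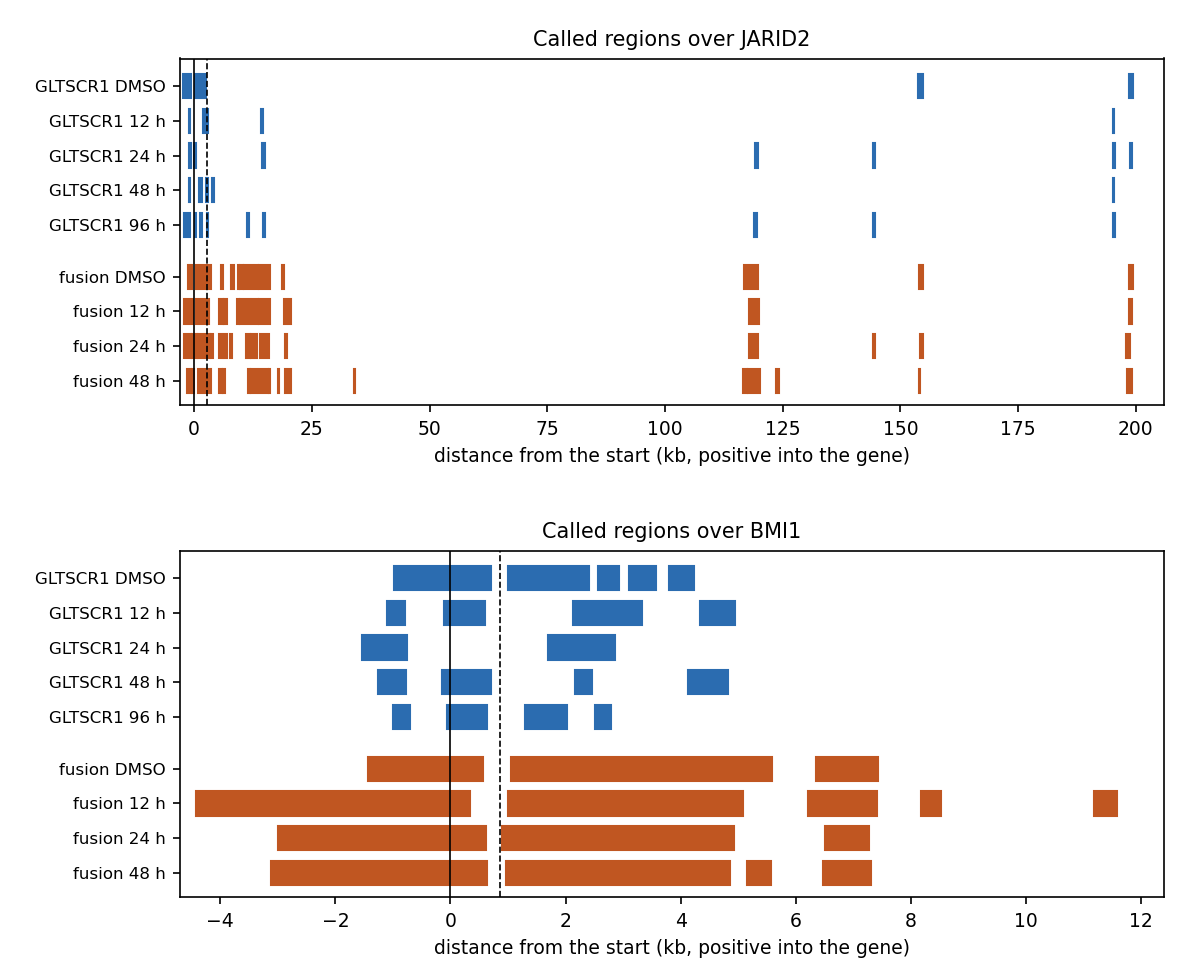
Called regions over JARID2 (top) and BMI1 (bottom) in the 9 lists, drawn as distance (kb) from the outer start (solid line); dashed lines are further RefSeq starts, and the JARID2 axis stops after its last region. Fusion regions (orange) cover 13.4 to 15.8 kb of JARID2, against 1.94 to 4.72 kb for GLTSCR1 (blue), and recur near 15 and 118 kb. The whole fusion lists also cover more bases than the GLTSCR1 lists at each shared time.

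The other PRC1 genes include the shared core of PRC1. RNF2 (RING1B), the main H2A ubiquitin ligase, had 1 GLTSCR1 region at its start with folds of 9.59 in DMSO, 4.53 at 12 h and 4.67 at 96 h, and none at 24 or 48 h. Its fusion region had folds of 4.28 in DMSO and 3.99 at 48 h, with none at 12 or 24 h. RYBP, which binds RNF2 in variant PRC1, had no GLTSCR1 region at 12 h and folds of 10.4, 4.33, 4.84 and 5.74 in the other lists. Its fusion folds were 7.06, 5.42, 7.86 and 3.99 in all 4 lists, so RYBP was the only gene of this group with a complete fusion series. YAF2, the paralog of RYBP, had GLTSCR1 folds of 6.80, 3.89 and 4.78 in DMSO and at 12 and 96 h. Its fusion fold was 4.30 in DMSO, at the start, and 5.36 at 12 h, 24116 bp inside from the nearest start. The 12 h fusion region at the YAF2 start had a fold of 3.56.

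PCGF3, the RING-finger subunit of another variant PRC1, had a fusion region at its start in DMSO (4.82) and at 12 h (3.63). Its 1 GLTSCR1 region, at 96 h (fold 6.82), was 37019 bp inside from the nearest start. RING1, the paralog of RNF2, had GLTSCR1 folds of 4.43, 5.26 and 3.50 in DMSO and at 12 and 48 h, and fusion folds of 4.14 and 3.39 in DMSO and at 48 h. Its strongest DMSO regions lay within 1 kb of HSD17B8. The fusion was called at PCGF5 in DMSO (4.06), at 12 h (5.40) and at 48 h (4.71), and PCGF6 had 1 fusion region, at 12 h (5.84).

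In PRC2, EZH2, the main histone methyltransferase, had 1 GLTSCR1 region in each of the 5 lists just upstream of its start. Folds were 16.0, 8.89, 6.45, 6.07 and 7.87, at percentiles 98.8, 92.2, 79.3, 70.7 and 87.8 of their lists, and the 5 summits lay from -694 to -484 bp of the start. These summits are farther from the start than the 250 bases shown above. Fusion regions at the same place were among the lowest of their lists by fold. Folds were 3.24 in DMSO, 2.84 at 12 h and 3.27 at 48 h (percentiles 8.20, 1.82 and 7.42). This low rank is by fold alone, and the −log10 q of these regions was 5.34, 5.62 and 5.10. No fusion region was called at 24 h. EZH1, the paralog of EZH2, had 1 fusion region, at 48 h (4.25).

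PHF19 and MTF2 are Polycomb-like accessory subunits that help PRC2 bind CpG islands. PHF19 had GLTSCR1 folds of 11.8, 15.04, 6.89, 7.56 and 6.54, with summits 19 to 506 bp downstream of a start, and fusion folds of 4.66, 4.50 and 4.25 in DMSO and at 12 and 48 h. MTF2 had GLTSCR1 folds of 10.4, 4.93, 7.64, 5.45 and 5.94, with the 5 summits within 117 bp of each other, and 1 fusion region, at 24 h (3.75). PHF1, the other Polycomb-like gene, was called for GLTSCR1 in DMSO (4.18) and at 12 h (3.54) and for the fusion at 12 h (3.31) and 48 h (4.31). Each of its strongest regions lay within 1 kb of KIFC1.

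JARID2, a PRC2 accessory subunit on chromosome 6 (span 276 kb), was the member with the second broadest fusion coverage after BCOR. Fusion regions numbered 13, 12, 17 and 17 in DMSO and at 12, 24 and 48 h and covered 15.4, 14.9, 13.4 and 15.8 kb, with highest folds of 12.5, 8.90, 9.80 and 7.30. The DMSO maximum (chr6:15259871-15262222) was 12219 bp inside from the nearest start, and a fusion region overlapped it in each later list. A second fusion site, at chr6:15362957-15365812 in DMSO (fold 6.66), was also called in all 4 lists and was the strongest at 48 h. GLTSCR1 regions numbered 4, 4, 7, 5 and 9 over 4.72, 1.94, 3.20, 1.95 and 3.15 kb, with highest folds of 6.12, 5.58, 5.93, 6.60 and 6.51. These maxima were not at a single site. Their summits lay -1243, 11592, 192517, 192555 and 141604 bp from the nearest start, from DMSO to 96 h. From DMSO to 48 h, 84.1%, 85.5%, 65.2% and 64.8% of the GLTSCR1 bases lay under fusion regions. The promoter of its inner start was overlapped in 4 GLTSCR1 and 4 fusion lists.

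SUZ12, the core subunit that holds PRC2 together, had GLTSCR1 folds of 8.51, 6.37 and 5.60 in DMSO and at 12 and 96 h, and a fusion region in DMSO alone (3.58). EED, which reads the methyl mark, was called once for each antibody, for GLTSCR1 at 12 h (6.09) and for the fusion at 48 h (6.28), and for neither in DMSO. RBBP4, a histone-binding subunit, had GLTSCR1 folds of 8.73, 7.37 and 6.51 in DMSO and at 12 and 24 h, and a fusion region in DMSO alone (4.51), all within 1 kb of ZBTB8OS. RBBP7, its paralog on chromosome X, had GLTSCR1 folds of 6.69 and 3.74 in DMSO and at 24 h, and fusion folds of 5.76 and 4.86 at 12 and 24 h. AEBP2, an accessory subunit, had a weak GLTSCR1 region in DMSO alone (3.58, percentile 13.3), and fusion folds of 5.00, 3.65 and 4.00 in DMSO and at 12 and 24 h. In all, the windows of 13 of the 33 members hold part of another protein-coding gene.

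Other Polycomb-linked genes and BAF subunit genes were counted in the same way. Of 35 other Polycomb-linked genes (PRC1 and PRC2 partners, the PR-DUB deubiquitinase and the H3K27 demethylases), GLTSCR1 was called at 25 in DMSO (71.4%, against 78.8% of members) and at 20 (57.1%), 17 (48.6%), 13 (37.1%) and 16 (45.7%) later. Fusion regions were at 17 of them in DMSO (48.6%, against 60.6%) and at 13 (37.1%), 14 (40%) and 13 (37.1%) later. All GLTSCR1 lists held 9 of the 35 (25.7%, against 11.6% of all genes), all fusion lists 9 (25.7%, against 13.3%) and all 9 lists 5 (14.3%, against 6.48%). Of 30 BAF, PBAF and GBAF subunit genes, GLTSCR1 was called at 21 in DMSO (70%) and at 22 (73.3%), 13 (43.3%), 14 (46.7%) and 15 (50%) later, and the fusion at 13 in DMSO (43.3%) and at 14 (46.7%), 10 (33.3%) and 10 (33.3%) later. All genes stood at 37.3%, 33.5%, 23.7%, 18.2% and 23.4% for GLTSCR1 and at 24.2%, 23.9%, 21.6% and 23.5% for the fusion, below both lists each time. ASXL1 (16.8), CBX3 (15.7) and AUTS2 (11.9) had the highest DMSO GLTSCR1 folds of the Polycomb-linked genes, and ASXL3 (19.3), AUTS2 (11.0) and FBRSL1 (7.51) the highest fusion folds. Of the BAF genes these were BICRAL (19.2), ARID1A (16.6) and SMARCE1 (13.6) for GLTSCR1, and BCL11A (9.82), BCL11B (8.66) and SS18 (5.90) for the fusion. The shares of members were not tested against those of either list.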

How the data were processed

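GLTSCR1 and anti-HA (fusion) ChIP-seq peak lists, 9 in all with 1 library per group, were used; the 5 input libraries were not analysed here. Per the submitters' processing notes the authors used MACS2, BWA, bcl2fastq, FastQC, Trim Galore, cutadapt, deepTools, SAMtools and Picard on GRCh38 (hg38), with versions not given in the sources used here. The peak names in the deposited lists differ by library, so each library had its own peak calling. The deposited lists give each summit's fold enrichment (a linear ratio over the background of the peak caller; whether input was used for it is not given in the sources used here), −log10 p and −log10 q, a score derived by the authors' peak caller, and the summit's offset.

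Entries with the same coordinates were joined into 1 region that carried its strongest summit. Scaffolds were left out, keeping chromosomes 1 to 22, X and Y. Gene spans came from the RefSeq table of GRCh38.p14, in which all 33 symbols matched; promoters (250 bases before to 50 after each start) came from the RefSeq promoter table. Covered length counts bases inside the gene window, merged within a list, and percentiles rank a region's fold within its own list. Backgrounds are the same counts over 20033 protein-coding genes, or over 15842 genes for promoters. The counting was tested on simulated data. Python 3.11.15, pandas 2.3.3, numpy 2.4.6 and matplotlib 3.10.9 were used.

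The members and lists were chosen with earlier results of these data known. Values in each list were given for the 4 members per group with the highest DMSO percentile, those called in all 9 lists, those called in DMSO alone, those with a region over 5 kb, and EZH2, BMI1, RNF2, KDM2B and SUZ12. Other members are given more briefly, outside that rule, and were chosen after their values were seen. Depth is unknown, so no interval is given. Alternatives were spans without the flank, flanks of 3 kb, gene ends only, at least 50% of a region or a summit in the window, −log10 q of at least 5, lists of equal length and, added after the data were seen, RefSeq promoters and leaving out each list.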

Additional observations from a re-analysis of the deposited data

How the results depend on the processing

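Of 120 alternative values of 15 counts, 106 stayed within 1.5 times the count reported and 14 did not. For each antibody, the members kept from DMSO at every later time are by construction those called in all its lists. That count therefore enters double. The counts were compared without the totals they are out of. None of the 15 moved that far with spans without the flank, flanks of 3 kb, at least 50% of a region or a summit in the window, −log10 q of at least 5, or lists of equal length. With gene ends only, the fusion was called in all 4 lists at 5 members, which were 5 of the 15 it was called at in DMSO. With the RefSeq promoters of 31 members, chosen after the data were seen, all 15 counts were lower, 12 of them by over 1.5 times: GLTSCR1 at 10 members by 24 h and 12 by 96 h, the fusion at 9, 10, 7 and 8 from DMSO to 48 h, and both antibodies in DMSO at 9. In the same windows 6 members had GLTSCR1 in all 5 lists (6 of 19 called in DMSO) and 3 had the fusion in all 4 (3 of 9). In all 9 lists 2 had a region, BCOR and JARID2, the latter only with its promoters pooled. These windows hold 300 bases, by construction fewer than a span. Leaving out each list in turn, also chosen after the data were seen, gave 11 to 13 members with GLTSCR1 in all remaining lists, 8 to 11 with the fusion and 6 to 8 with both. Leaving out a list can only keep or raise such a count, so this could not have lowered any of them. The share over all genes is not given for these counts. The backgrounds fell with the windows: the share of all genes called in all 9 lists was 6.48% with spans, 2.38% with gene ends and 0.846% with promoters.

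No paired analysis was possible because each group held 1 library and no test was made. With 1 library a group, the difference between any 2 lists includes variation between cultures, immunoprecipitations and depths, none of which can be measured here. A gene window can hold regions of a neighbouring gene, and a long gene has more room for a region.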
